A study of Mus musculus with 6 samples.

Results

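The clustered histone genes of the mouse were followed in embryonic stem cells (ESCs) after small interfering RNA (siRNA) against RSL24D1. All genes in the deposited table whose symbol begins with Hist1h, Hist2h, Hist3h or Hist4h were taken, whatever their values, which gave 67 genes of the 22332 listed. They comprise 6 genes for the linker histone H1, 18 for H2A, 18 for H2B, 12 for H3 and 13 for H4. In GRCm38 coordinates, 54 lie in the Hist1 cluster on chromosome 13, 10 in Hist2 on chromosome 3 (96219865 to 96270132), 2 in Hist3 on chromosome 11 (58948920 to 58956830) and 1, Hist4h4, stands alone on chromosome 6. Only single-exon models are annotated for 62 of them, and the median transcript length is 539 bases. The Hist1 genes fall into a first group of 23 (21715763 to 22043676) and a second group of 31 (23531050 to 23934851). Of the 67, 66 passed the filter on low counts, out of 15084 genes tested. The exception was Hist1h4m, with rounded counts of 10, 2 and 0 in the control libraries and 2, 0 and 0 in the knockdown libraries.

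Both groups were CGR8 cells, a feeder-independent mouse ESC line, grown on gelatin in medium with 10% fetal bovine serum and leukaemia inhibitory factor. The siCtrl group (3 libraries) received a pool of non-targeting siRNAs. The siRSL24D1 group (3 libraries) received a pool of siRNAs against Rsl24d1, which encodes a factor of large ribosomal subunit assembly. RNA was taken after 48 h, and the design text calls the replicates independent without saying what made them so. p-values therefore measure the spread between these libraries. Libraries were stranded and made from total RNA after ribosomal RNA was removed. All cells are of 1 line, and transfection was transient. Numbers such as siCtrl 2 name a library and are not taken to pair it with a library of the other group.

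Histones wrap DNA into nucleosomes, with H2A, H2B, H3 and H4 forming the core and H1 binding the linker DNA. The clustered genes make most new histones while DNA is replicated, and their mRNAs are unusual in having no introns and, in the main, no poly(A) tail. The mRNA instead ends just after a short stem-loop that is bound by SLBP, the protein needed for its processing, translation and timed decay. Because oligo(dT) selection misses such mRNAs, libraries made from total RNA are the kind in which they can be read.

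The stem-loop was sought as 16 letters (GG, 2 free positions, CTTTT, 1 free position, AG, 1 free position and GCC) in the annotated transcripts (GENCODE M21), and it is shown because it is the element that sets these mRNAs apart. It was found in 42 of the 67 genes and in 0.215% of all genes with a protein-coding transcript. In the letters below, the arms of the stem are in capitals and the loop is in lower case.
most common form: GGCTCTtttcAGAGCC
second form: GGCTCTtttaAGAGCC
rare form: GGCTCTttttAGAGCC
H4 common form: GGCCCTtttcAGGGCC
H4 second form: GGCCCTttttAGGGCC
The most common form was carried by 26 genes, namely 3 for H1, 10 for H2A, 8 for H2B and 5 for H3. The second form was in 6 genes (1 H1, 2 H2B and 3 H3) and the rare form in 1 H2A gene. H4 genes carried only the remaining forms, 7 the common one and 2 the other. Of the 25 genes without the letters, 11 have an annotated model that holds coding sequence alone, so no stem-loop could be found in them. The other 14 have sequence beyond the coding part, though in Hist1h2af (399 bases, 390 of them coding) too little to hold the 16 letters.

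RefSeq promoter windows (GRCm38.p6, 250 bases before to 50 after the start) were available for 62 of the 67 genes, matched through RefSeq synonyms. The letters ATTTGCAT, the octamer bound by POU factors, were found on either strand in 7 of 18 H2A windows and 6 of 16 H2B windows and in no H1, H3 or H4 window, against 1.74% of all 32851 windows. CCAAT was found in every H1, H2A, H2B and H3 window but in 3 of 12 H4 windows, against 37.4% of all windows. TATAAA was found in 56.5% of the members' windows and in 13.6% of all windows. 3 windows are shown because they belong to the genes with the largest rise (Hist1h2ba) and to 2 of those with the largest falls (Hist3h2ba and Hist1h4i). Capitals mark these motifs on either strand.
Hist1h2ba, chr13:23934217-23934406, minus strand: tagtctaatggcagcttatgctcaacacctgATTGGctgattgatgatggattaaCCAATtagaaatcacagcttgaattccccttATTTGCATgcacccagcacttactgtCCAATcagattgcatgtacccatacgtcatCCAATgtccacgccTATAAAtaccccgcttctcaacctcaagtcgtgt
Hist3h2ba, chr11:58948661-58948910, plus strand: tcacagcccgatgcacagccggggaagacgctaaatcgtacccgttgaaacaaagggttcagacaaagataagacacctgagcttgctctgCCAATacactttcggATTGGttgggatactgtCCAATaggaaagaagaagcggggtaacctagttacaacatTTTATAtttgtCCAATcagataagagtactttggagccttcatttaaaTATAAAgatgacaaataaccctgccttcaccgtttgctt
Hist1h4i, chr13:22041363-22041612, minus strand: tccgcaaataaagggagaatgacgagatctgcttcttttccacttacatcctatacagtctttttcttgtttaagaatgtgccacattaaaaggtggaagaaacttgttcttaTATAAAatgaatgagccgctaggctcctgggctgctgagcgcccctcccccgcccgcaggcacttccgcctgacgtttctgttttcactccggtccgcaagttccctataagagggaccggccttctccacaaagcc
For Hist1h2ba the last 60 bases before the RefSeq start are not shown, because its model begins at the coding sequence. Matches are matches of letters and were not shown to be bound.

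The libraries held between 30943635 and 35214000 estimated counts each, with a count for 17710 to 18201 genes. Rsl24d1 stood at 99.4, 102.7 and 97.9 CPM (counts per 1000000, scaled by TMM factors) in siCtrl and at 53.8, 55.5 and 52.1 CPM in siRSL24D1. The groups did not overlap, and the log2 fold change was -0.89 (SE 0.04, edgeR adjusted p = 2.02e-05). All 10 ESC markers looked for were detected, with Pou5f1 at 482 CPM in both groups on average. Of these markers 1 rose (Zfp42, 0.24) and 6 fell, with a median log2 fold change of -0.17. Tdgf1, Fgf4 and Nanog fell most, at -0.62, -0.55 and -0.49. Of all tested genes, 20% fell and 21.2% rose.

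The clustered histone genes were slightly lower after RSL24D1 knockdown, and few changed strongly. Of the 66 tested, 15 fell, 4 rose and 47 did not pass the test (edgeR quasi-likelihood, adjusted p under 0.05). The 28.8% called compares with 41.2% of all tested genes, the 22.7% that fell with 20% of all tested genes, and the 6.06% that rose with 21.2%. In this fit the share that fell is near that of all genes, while the share that rose is below it. With DESeq2, 23 of the 66 fell, or 34.8% against 16.9% of all genes it tested, so how the share that fell compares with other genes depends on the test. The median log2 fold change was -0.15, against 0.02 for all tested genes, and 52 of 66 lay below 0. None changed by 2-fold or more. The siRSL24D1 libraries all lay below the siCtrl libraries for 17 genes, where 26.2% of all tested genes did so, and all above for 4 genes, where 26.8% did so. In bulk RNA, fewer cells in S phase and less histone RNA per cell cannot be told apart.

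**Figure D1:**
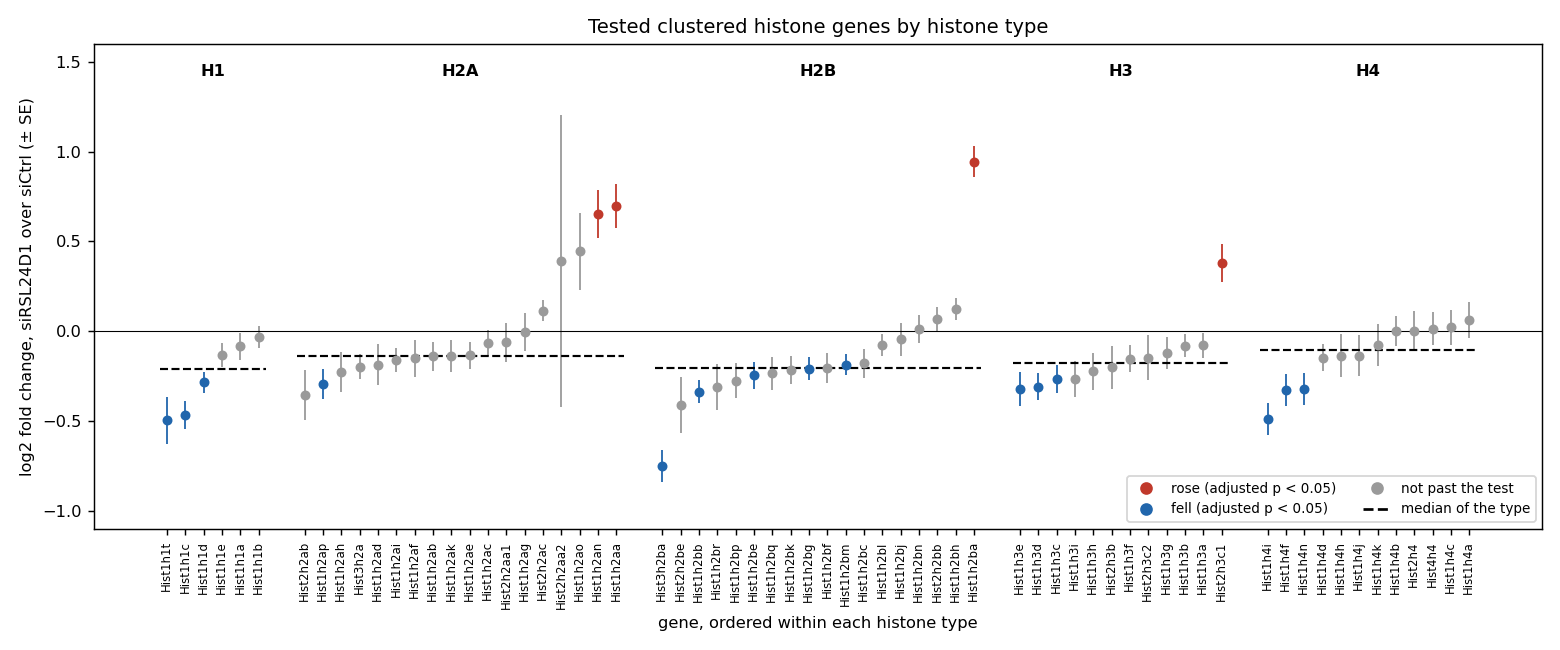
Log2 fold change (siRSL24D1 over siCtrl, vertical axis) with its standard error for each of the 66 tested clustered histone genes, ordered within H1, H2A, H2B, H3 and H4. Most points lie a little below 0, the dashed median of each type lies between -0.21 and -0.11, and 4 genes (red) lie above 0 as called rises beside 15 called falls (blue).

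Of the siRSL24D1 libraries, siRSL24D1 2 stood apart for these genes. Clustered histone genes took 1.63%, 1.69% and 1.57% of all counts in siCtrl 1, 2 and 3, and 1.45%, 1.63% and 1.37% in siRSL24D1 1, 2 and 3. The share in siRSL24D1 2 thus lay within the range of the controls, and the other siRSL24D1 libraries lay below it. For 64 of 66 genes siRSL24D1 2 was the highest of its group. Set against the mean of the controls, the members' median was -0.23 in siRSL24D1 1, 0.02 in siRSL24D1 2 and -0.28 in siRSL24D1 3 on the log2 scale. The knockdown was of like size in all 3, as the Rsl24d1 values above show.

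Without siRSL24D1 2, 43 of the 66 genes fell (65.2%, against 18% of all genes tested in the same fit), 3 rose (18.3% of all genes higher), and the median was -0.24. Leaving out any other library gave between 6 and 24 falls and 3 or 4 rises. The lowest counts were 6 falls without siCtrl 2 (14.1% of all genes lower), 7 without siRSL24D1 1 (16.4%) and 7 without siRSL24D1 3 (14.4%), and the highest was 24 without siCtrl 3 (21.5%). The direction of the median held in each case, but which genes passed depended on the library left out. Calls for 9 genes stayed with every library left out in turn: Hist3h2ba, Hist1h4i, Hist1h1c, Hist1h2bb, Hist1h3d and Hist1h1d as falls, and Hist1h2ba, Hist1h2aa and Hist1h2an as rises.

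Other measures were set beside this difference between libraries. Non-histone genes with transcripts shorter than 1000 bases (739 tested) had medians of -0.08, 0.01 and -0.11 in siRSL24D1 1, 2 and 3, so they followed the same order with a smaller spread. Genes of DNA replication had medians of -0.15, -0.13 and -0.16, and did not set siRSL24D1 2 apart. The part of transcript length in the histone values of siRSL24D1 2 was not tested. With fold changes corrected for transcript length by loess, 19 members fell and 6 rose (22.9% of all genes lower and 20.9% higher), and the members' median was -0.10.

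**Figure D2:**
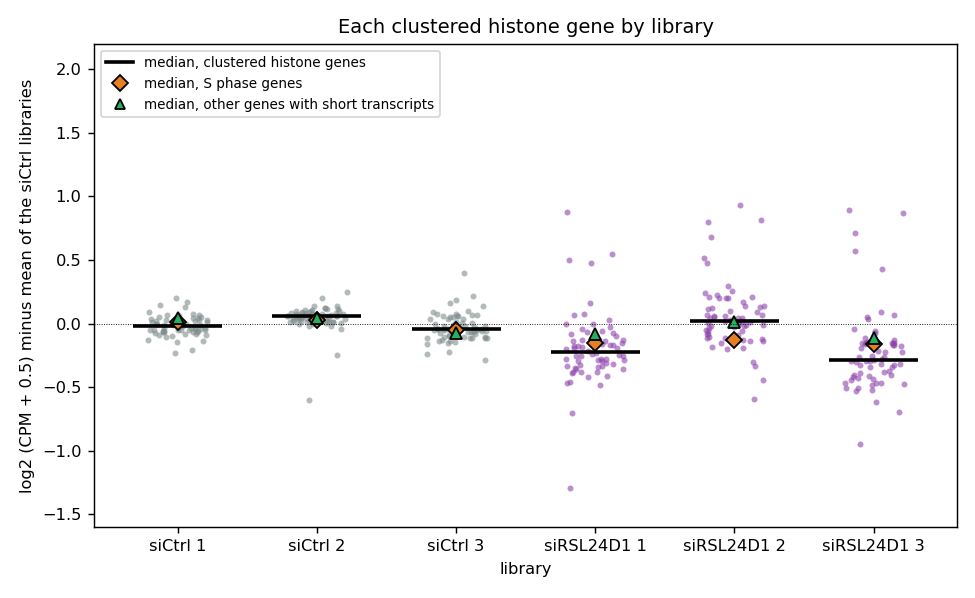
Deviation of each of the 66 genes from the mean of the siCtrl libraries (log2 of CPM + 0.5, vertical axis) in each of the 6 libraries, with the median of the genes as a bar and the medians of S phase genes (diamonds) and of other genes with short transcripts (triangles). The bar lies at -0.23, 0.02 and -0.28 in siRSL24D1 1, 2 and 3, while the diamonds lie between -0.16 and -0.13.

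Summed over all 67 genes, the level was 16407, 17134 and 15741 CPM in siCtrl and 14288, 16380 and 13530 CPM in siRSL24D1. The groups overlapped through siRSL24D1 2, and the ratio of the means was 0.897, or 0.847 without that library. By type the ratio was 0.875 for H1, 0.918 for H2A, 0.909 for H2B, 0.871 for H3 and 0.908 for H4. In the sums of H2A and H4, siRSL24D1 2 was above all 3 controls (1487 CPM against 1362, 1452 and 1435 CPM for H2A, and 4768 CPM against 4432, 4724 and 4499 CPM for H4).

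**Figure D3:**
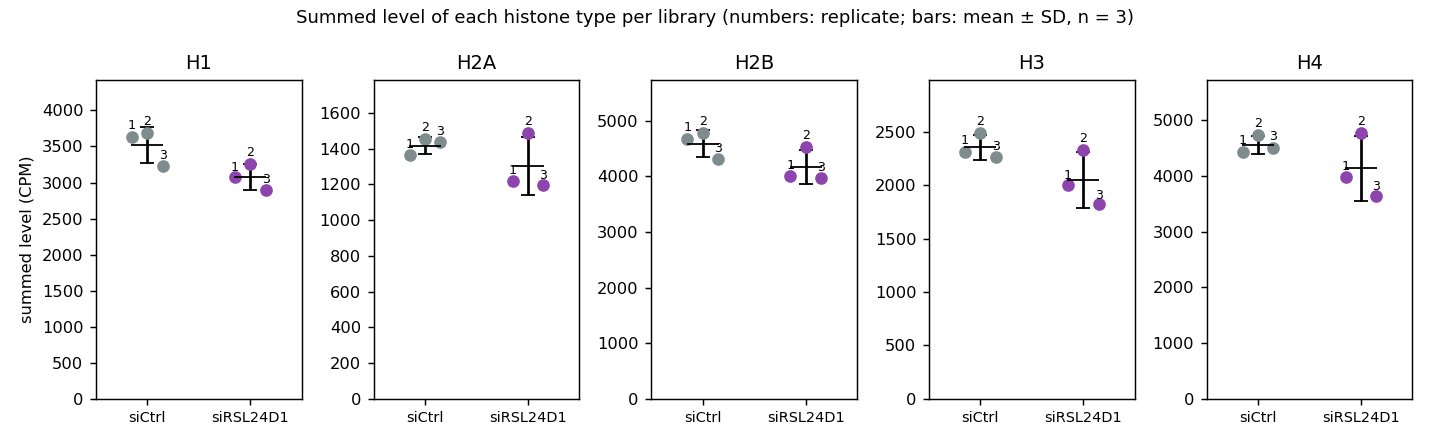
Summed level (CPM, vertical axis from 0) of the genes of each histone type in each library, numbered by replicate, with mean and SD of 3 libraries per group. Library 2 is the highest siRSL24D1 library in all 5 panels and lies within or above the control range for H1, H2A, H2B, H3 and H4.

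The H1 genes, which encode the linker histones, all had fold changes below 0, and 3 of 6 fell, with a median of -0.21. Hist1h1c (H1f2 in RefSeq, ENSMUSG00000036181.2, chromosome 13, 23738808 to 23740367) stood at 726, 751 and 658 CPM in siCtrl and at 516, 564 and 462 CPM in siRSL24D1. All knockdown libraries were below all controls, and the log2 fold change was -0.47 (SE 0.08, edgeR adjusted p = 0.0022). Hist1h1d (H1f3) was at 708, 704 and 634 CPM in siCtrl and at 542, 595 and 543 CPM in siRSL24D1, a fall of -0.28 (SE 0.06, edgeR adjusted p = 0.00599), again with no overlap.

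Hist1h1t, the testis form of H1, was low throughout, at 8.29, 10.1 and 7.15 CPM in siCtrl and 6.31, 6.07 and 5.69 CPM in siRSL24D1. It fell by 0.50 on the log2 scale (SE 0.13, edgeR adjusted p = 0.0162), a call lost without siCtrl 2 or siRSL24D1 3. The remaining H1 genes did not pass the test. Their log2 fold changes were -0.13 for Hist1h1e (edgeR adjusted p = 0.133), -0.08 for Hist1h1a (0.398) and -0.03 for Hist1h1b (0.706), and their groups overlapped. Apart from Hist1h1e, with 26.6% of its 50-base stretches shared, the H1 genes share under 10% of theirs with other genes, so their counts depend less on how reads were divided among copies.

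Among the 18 H2A genes, 2 rose, 1 fell and the median was -0.14. The fall was that of Hist1h2ap, from 149.9, 149.2 and 148.6 CPM to 119, 139 and 108 CPM (-0.29, SE 0.08, edgeR adjusted p = 0.022), and it was lost without siCtrl 2, siRSL24D1 1 or siRSL24D1 3. Without siRSL24D1 2, 11 of the 18 fell (18% of all genes lower in that fit). With each library left out in turn, the number of falls ranged from 0 to 11. Hist1h2ab was at 138, 145 and 149.9 CPM in siCtrl and at 120.4, 149 and 123 CPM in siRSL24D1, with overlapping groups and a change of -0.14 that did not pass (edgeR adjusted p = 0.197). Hist2h2aa1 was at 336, 357 and 358 CPM and at 309.5, 403 and 293 CPM, so siRSL24D1 2 exceeded every control and the other knockdown libraries lay below every control. Its change of -0.06 did not pass (edgeR adjusted p = 0.671) and was -0.22 without siRSL24D1 2. The smallest H2A change was that of Hist1h2ag, at 0.00 (SE 0.11).

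The 18 H2B genes held 5 falls and 1 rise, with a median of -0.21. Hist3h2ba (ENSMUSG00000056895.4, chromosome 11, 58948920 to 58949533) had the largest fall of all members. It went from 67.5, 66.4 and 59.8 CPM to 39.4, 42.5 and 33.1 CPM, with no overlap and a log2 fold change of -0.75 (SE 0.09, edgeR adjusted p = 0.000472). Hist1h2bb fell from 468, 497 and 472 CPM to 368, 417 and 353 CPM (-0.34, SE 0.06, edgeR adjusted p = 0.00393). The other falls were smaller, at -0.25 for Hist1h2be, -0.21 for Hist1h2bg and -0.19 for Hist1h2bm. For Hist1h2be the groups overlapped, and its annotated span also covers part of Hist1h1e on the same strand, so reads there cannot be assigned to 1 of them with certainty. The calls for Hist1h2bg and Hist1h2bm were lost after the length correction.

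Hist2h2bb was at 1054, 1098 and 921 CPM in siCtrl and at 1073, 1105 and 1045 CPM in siRSL24D1, a change of 0.07 that did not pass (edgeR adjusted p = 0.439). All 50-base stretches of Hist1h2bq are shared with Hist1h2br, so its count depends on how reads were divided. Hist1h2bq was at 548, 546 and 523 CPM in siCtrl and at 442, 533 and 399 CPM in siRSL24D1. Its groups overlapped through siRSL24D1 2, and the change of -0.24 did not pass (edgeR adjusted p = 0.0764). Hist1h2bn changed least among the H2B genes, by 0.01 (SE 0.08).

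Of the 12 H3 genes, 3 fell and 1 rose, with a median of -0.18. Hist1h3d fell from 138, 152 and 138 CPM to 111, 128 and 106 CPM (-0.31, SE 0.07, edgeR adjusted p = 0.0109). Hist1h3e fell from 388, 436 and 382 CPM to 315, 368 and 281 CPM (-0.32, SE 0.09, edgeR adjusted p = 0.0267), and Hist1h3c changed by -0.27. In all 3 genes the groups did not overlap, and the calls for Hist1h3e and Hist1h3c were lost without siCtrl 2, siRSL24D1 1 or siRSL24D1 3. Hist2h3c2 was at 272, 268 and 247 CPM and at 227, 288 and 194 CPM, with siRSL24D1 2 above every control, and its change of -0.15 did not pass (edgeR adjusted p = 0.371). Without siRSL24D1 2, 10 of the 12 H3 genes fell (18% of all genes lower in that fit) and the median was -0.33. With each library left out in turn, from 1 to 10 fell and the median ranged from -0.33 to -0.084. Hist1h3a changed least among the H3 genes, by -0.08 (SE 0.07).

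The 13 H4 genes encode 1 of the most conserved proteins known, and 12 were tested. 3 fell, none rose and the median was -0.11, or -0.23 without siRSL24D1 2 and 0.0033 without siRSL24D1 3. Hist1h4i (ENSMUSG00000060639.5, chromosome 13, 22040636 to 22041362) went from 311, 336 and 309.6 CPM to 227, 258 and 197 CPM, with no overlap and a log2 fold change of -0.49 (SE 0.09, edgeR adjusted p = 0.00325). Hist1h4f fell by 0.33 and Hist1h4n by 0.32 on the log2 scale, and both calls were lost without siCtrl 2, siRSL24D1 1 or siRSL24D1 3. Hist1h4d was at 1044, 1085 and 1002 CPM in siCtrl and at 928, 1047 and 849 CPM in siRSL24D1, a change of -0.15 that did not pass (edgeR adjusted p = 0.145). Hist2h4, Hist4h4 and Hist1h4b were at 0.00, 0.01 and 0.00 (SE 0.11, 0.09 and 0.08).

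The 4 genes that rose were all low in level, and 2 of them are the testis pair Hist1h2aa and Hist1h2ba. These encode the H2A and H2B forms best known from male germ cells, are transcribed away from each other, and have annotated starts 305 bases apart. Both models hold coding sequence alone, so this is the distance between the coding sequences. Hist1h2ba (ENSMUSG00000050799.3, chromosome 13, 23933773 to 23934156) went from 5.72, 6.73 and 5.83 CPM to 11.6, 12.1 and 11.5 CPM, with tight groups far apart. Its log2 fold change was 0.94 (SE 0.09, edgeR adjusted p = 0.000134). Hist1h2aa went from 6.93, 8.60 and 6.80 CPM to 10.5, 13.2 and 12.4 CPM (0.70, SE 0.12, edgeR adjusted p = 0.0027). The groups did not overlap in either gene, and both calls stayed without siRSL24D1 2, at 0.92 and 0.62. Hist1h1t, the remaining testis-type gene among the members, fell.

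Markers of the 2-cell-like state, a rare state of ESC cultures marked by Zscan4 genes, were higher in the same libraries. Of 7 tested, 6 rose and none fell (21.2% of all tested genes rose), with a median log2 fold change of 2.84. All 10 were detected in at least 1 library. Their summed level was at most 3.66 CPM in siCtrl and 18.1, 17.4 and 11.8 CPM in siRSL24D1. Markers of primitive endoderm summed to between 211 and 215 CPM in siCtrl and between 303 and 337 CPM in siRSL24D1. Most of that sum was Col4a1, at 167, 174 and 171 CPM in siCtrl and 262, 298 and 299 CPM in siRSL24D1. Among 7 tested, 3 were higher and 2 lower. The other rises were Gata4 and Gata6, both low in level, and the falls were Dab2 and Pdgfra. Fibroblast markers summed to between 128 and 160.1 CPM and between 125 and 148 CPM, with 1 of 8 higher and 2 lower. No marker of these lists was at 0 in all libraries. The part of any of these states in the histone changes was not tested.

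Hist1h2an rose from 8.26, 6.55 and 9.03 CPM to 11.4, 14.2 and 11.9 CPM (0.65, SE 0.13, edgeR adjusted p = 0.00529), with no overlap. Most of its sequence is shared with Hist1h2ah, Hist1h2ai and Hist1h2ad, so its count is uncertain. Summed over these 4 copies, the level was 187, 196 and 203 CPM in siCtrl and 167, 205 and 160.2 CPM in siRSL24D1, and the change was -0.14 (SE 0.09, edgeR adjusted p = 0.237). The sum thus leaned the opposite way and did not pass. Hist2h3c1 rose from 7.53, 8.70 and 8.73 CPM to 9.37, 11.7 and 11.4 CPM (0.38, SE 0.11, edgeR adjusted p = 0.0224). All of its sequence is shared with another gene model, and the call was lost without siCtrl 1, siRSL24D1 2 or siRSL24D1 3.

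**Figure D4:**
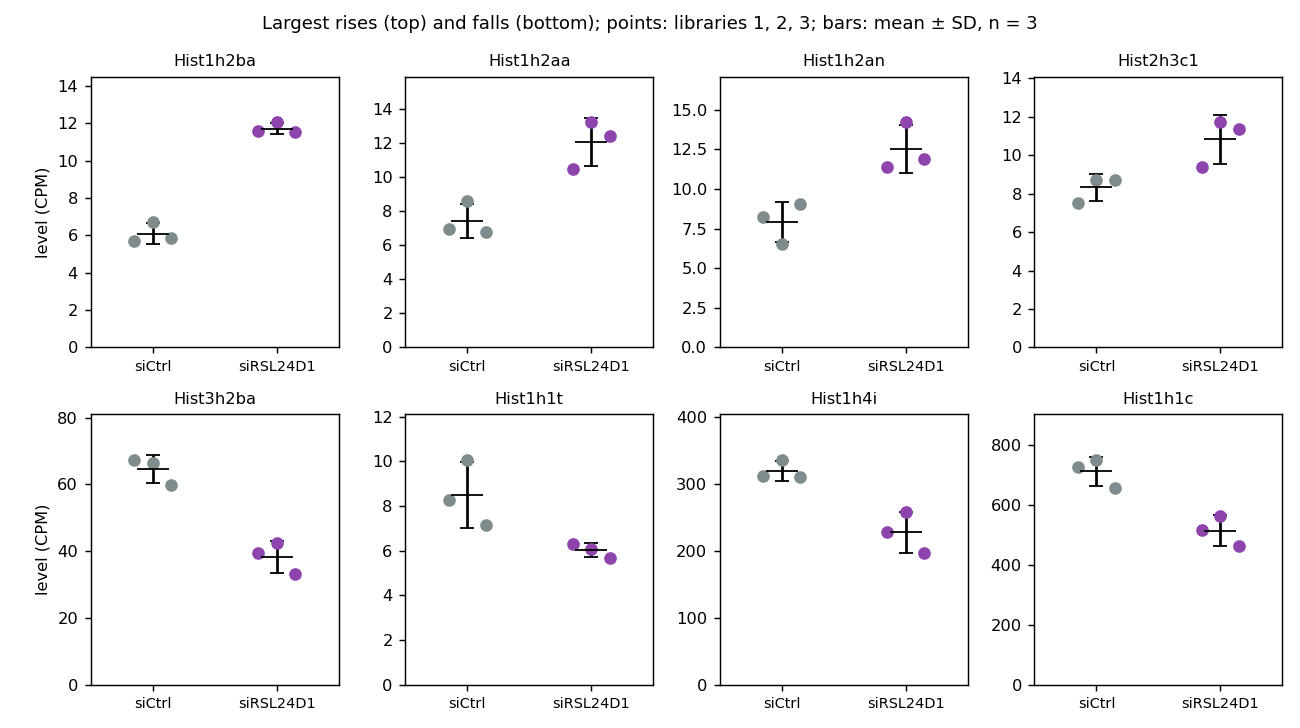
Level (CPM, vertical axes from 0) of the 4 genes with the largest called rises (top) and the 4 with the largest called falls (bottom), with points for libraries 1, 2 and 3 of each group and bars for mean and SD (n = 3). In all 8 panels the groups do not overlap; Hist1h2ba goes from 5.72 to 6.73 CPM in siCtrl to between 11.5 and 12.1 CPM in siRSL24D1.

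By position, the Hist1 cluster, with 53 of the 66 tested genes, held 14 of the 15 falls and 3 of the 4 rises (median -0.15). In this cluster 26.4% of the tested genes fell, against 22.7% of all tested members and 20% of all tested genes. In its first group 4 fell and 1 rose (median -0.17), and in its second group 10 fell and 2 rose (median -0.15). Within the second group, the rising pair Hist1h2ba and Hist1h2aa lay at the end. The nearest other member was Hist1h1a, at -0.08, which ends at 23764406, while Hist1h2ba begins at 23933773. Trim38 and Slc17a1 to Slc17a4 lie between them and were too low to be tested. In Hist2 none of 10 fell, 1 rose and the median was -0.03. Without siRSL24D1 2, 4 fell (18% of all genes lower in that fit) and the median was -0.15. The number of falls ranged from 0 to 4 with a library left out. The median was 0.0013 without siRSL24D1 1, also just above 0 without siRSL24D1 3, and 0.014 after the length correction. Summed over Hist2 the level was 1899, 1960 and 1746 CPM in siCtrl and 1828, 2052 and 1735 CPM in siRSL24D1, a ratio of 1.00. In Hist3, Hist3h2ba fell, and Hist3h2a went from 248, 280.2 and 245 CPM to 210.2, 243 and 222 CPM. Those groups did not overlap, and the change of -0.20 missed the threshold (edgeR adjusted p = 0.0502). Whether the clusters differ from one another was not tested.

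Few non-histone genes inside these intervals were expressed. In the first Hist1 group Prss16 (-0.56) and Zfp184 (-0.19) both fell. The call for Prss16 was lost without siCtrl 2, siRSL24D1 1 or siRSL24D1 2, that for Zfp184 without siCtrl 1, siCtrl 2, siRSL24D1 2 or siRSL24D1 3, and neither passed with DESeq2 (adjusted p = 0.0724 and 0.093). In the second Hfe was at -0.03 and did not pass (edgeR adjusted p = 0.907), and in Hist3 Trim17, at 0.70 CPM or less in every library, did not pass (edgeR adjusted p = 0.226).

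**Figure D5:**
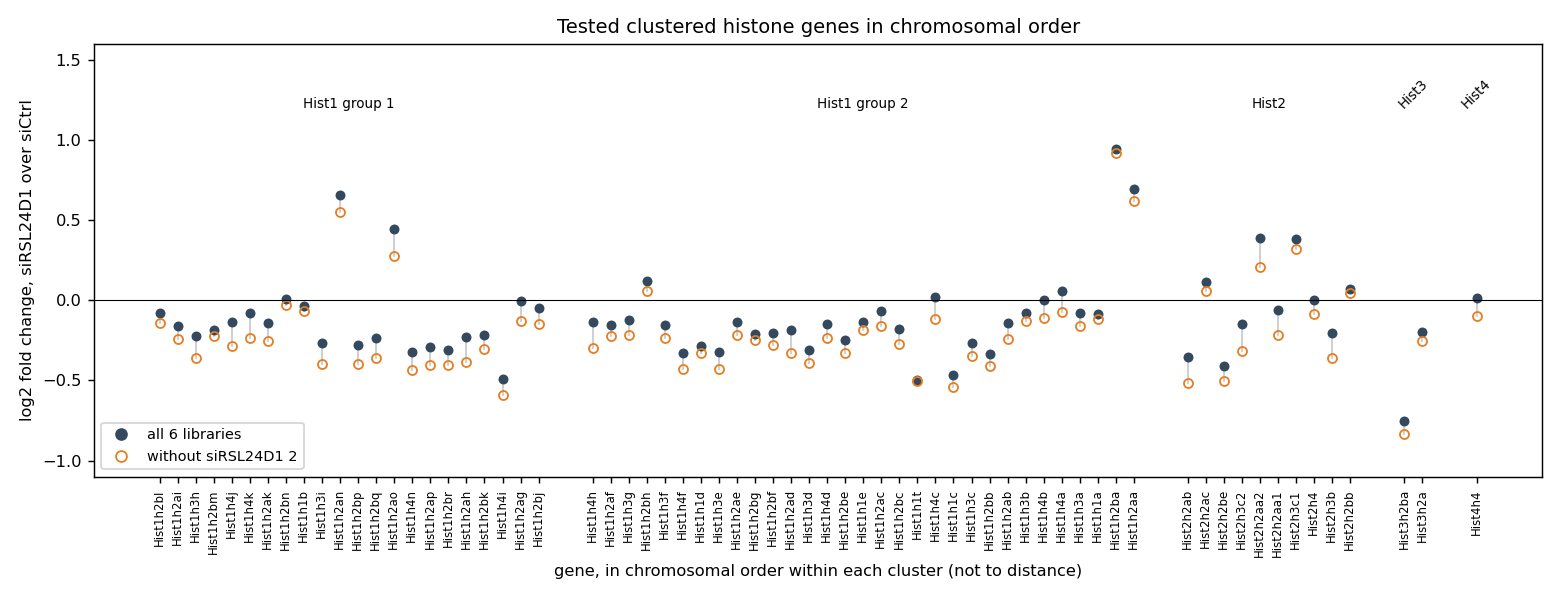
Log2 fold change (siRSL24D1 over siCtrl, vertical axis) of the 66 tested genes in chromosomal order, with all 6 libraries (filled) and without siRSL24D1 2 (open). Open points lie below the filled ones for nearly every gene, the pair Hist1h2ba and Hist1h2aa stands at 0.94 and 0.70 at the end of the second Hist1 group, and Hist3h2ba is lowest at -0.75.

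Divergent H2A and H2B genes share the sequence between their starts. There were 12 such pairs, with 175 to 305 bases between annotated starts, some of which are only starts of coding sequence. Both members lay below 0 in 7 pairs, both above in 1 and on opposite sides in 4. In these 4, Hist1h2an and Hist1h2ao lay above 0 but share 85.8% and 93.5% of their 50-base stretches with other genes. Summed with their copies, they were at -0.14 and -0.26. Hist1h2bn was at 0.01 and changed sign between settings. Genes in the same-sign pairs share sequence as well. Both passed as rises in 1 pair, Hist1h2aa and Hist1h2ba, and no pair held 2 falls. In the pair Hist1h2ae and Hist1h2bg the H2A gene was at -0.13 and did not pass (edgeR adjusted p = 0.192), while the H2B gene fell by 0.21 on the log2 scale. In Hist2, Hist2h2ac was at 0.11 and Hist2h2be at -0.41, neither past the test (edgeR adjusted p = 0.164 and 0.0662). Of H2A and H2B genes, the 13 with the octamer letters in their window held 3 falls and 2 rises (median -0.14) and the 21 without held 3 falls and 1 rise (median -0.15).

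All 15 genes that fell carry the stem-loop letters in their annotated transcript, as does Hist2h3c1 among the 4 that rose. The letters were sought anywhere in the transcript, and many models run on beyond them. Among the falls this was by 3 bases in Hist1h2ap and up to 4884 in Hist1h1d. A match therefore does not show that the mRNA ends there. The medians were close, at -0.15 for the 41 tested genes with the letters and -0.14 for the 25 without. Without siRSL24D1 2, 30 of the 41 and 13 of the 25 fell, where 18% of all genes tested in that fit fell. Over all members, falls ranged from 6 to 43 with a library left out. Of the 11 tested genes whose model holds coding sequence alone, none fell and 3 rose (Hist1h2ba, Hist1h2aa and Hist1h2an). The letters could not be found in these 3, so the rises cannot be compared with the falls on this feature.

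Copies limit how far single genes can be read. Of the stretches of 50 bases in a member's transcripts, a median of 49.5% also occurred in another gene, 32 members shared at least 50% and 9 shared under 10%. These 9 held 3 falls and 1 rise, with a median of -0.08. The 26 tested genes between those limits held 9 falls and 1 rise (median -0.17), and the 31 tested genes above held 3 falls and 2 rises (median -0.14). With near-identical copies summed, 15 fell and 3 rose, where 20% of all genes tested in that fit fell and 21.2% rose. Fewer member rows were tested there, because copies were joined.

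Histone genes outside the clusters, whose mRNAs are mostly polyadenylated and made throughout the cell cycle, moved in both directions. Of 11 tested, 2 rose and 5 fell, with a median of -0.16. For this list and those below, 20% of all tested genes fell and 21.2% rose. H1f0, a linker histone linked to differentiated cells, went from 126 ± 8.98 CPM to 86.1 ± 5.86 CPM (SD, n = 3), with no overlap and a change of -0.55 (SE 0.07, edgeR adjusted p = 0.000497). H2afy, which encodes macroH2A, fell by 0.46 and Cenpa, the centromeric H3, by 0.31 on the log2 scale. The genes for the replacement histone H3.3 went opposite ways: H3f3b rose by 0.21 (1182, 1159 and 1064 CPM to 1239, 1390 and 1315 CPM), and H3f3a fell by 0.16 on the log2 scale (516, 502 and 458 CPM to 448, 453 and 420 CPM; edgeR adjusted p = 0.0488). Both H3.3 calls were lost without siRSL24D1 2, among other libraries. H2afj rose by 0.31, a call lost without siCtrl 1, siRSL24D1 2 or siRSL24D1 3. H2afz was at 0.10 and H2afx at -0.06, neither past the test (edgeR adjusted p = 0.148 and 0.588).

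Among 9 genes of histone gene transcription, 1 rose and 2 fell (median -0.03). Npat, the coactivator at histone gene clusters, was at 113, 111 and 110.6 CPM in siCtrl and 109, 110.6 and 111 CPM in siRSL24D1 (-0.02, edgeR adjusted p = 0.683). Hinfp, the factor that binds H4 promoters, fell by 0.16, E2f1 fell by 0.52 on the log2 scale, and Ccne2 rose by 0.20. The call for Hinfp was lost without siCtrl 1 or siCtrl 2, and that for Ccne2 without siCtrl 2, siCtrl 3 or siRSL24D1 3.

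Of 16 genes for processing of the histone mRNA 3' end, 3 rose and 3 fell (median -0.01). Slbp was at 154, 153 and 150.3 CPM in siCtrl and 148, 156 and 148 CPM in siRSL24D1, with overlapping groups and a change of -0.02 (SE 0.04, edgeR adjusted p = 0.738). Lsm11, a subunit specific to the U7 particle that directs cleavage, fell by 0.36 on the log2 scale (edgeR adjusted p = 0.000745). Ncbp2 of the cap-binding complex rose by 0.33 and Srrt, which works with that complex, by 0.31. Of 8 genes for translation and decay of histone mRNA, Lsm1 rose by 0.20, a call lost in 4 of the 6 fits that leave out a library. Dis3l2 fell by 0.35 on the log2 scale. These 8 genes had a median of 0.05.

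The chaperones that carry histones held 4 rises and 2 falls among 19 genes (median -0.02). Hira, which deposits H3.3, rose by 0.38 and the importin Ipo4 by 0.35, while Chaf1b, a subunit of the chromatin assembly factor that acts at replication forks, fell by 0.43 on the log2 scale. Of 20 genes of S phase replication, 11 fell and 2 rose, where 20% of all tested genes fell and 21.2% rose. Their median was -0.15, the same to 2 decimals as that of the clustered histone genes. Without siRSL24D1 2 the medians were -0.16 for this list and -0.24 for the clustered histone genes. Mcm6 of the replicative helicase went from 384, 391 and 380.4 CPM to 306, 298 and 295 CPM (-0.36, SE 0.04, edgeR adjusted p = 0.000218). Gins2 fell by 0.26 and Cdt1 by 0.27 on the log2 scale, the latter a call lost without siRSL24D1 2 or siRSL24D1 3. The medians of this list in siRSL24D1 1, 2 and 3 were given above and differed by less than those of the histone genes.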

How the data were processed

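Total RNA was sequenced in 6 libraries, and the deposited file gives estimated counts per gene. STAR 2.7.0f, Salmon 0.14.1 and the build GRCm38 are named in the submitters' processing notes. How reads were divided among gene copies or strands is not given in the sources used here. Per the deposited values, 21.6% to 22.6% of the estimated counts in a library were not whole, so they were rounded. Genes passing filterByExpr in edgeR 4.0.16 (R 4.3.3) were scaled by TMM and tested with the quasi-likelihood F test, siRSL24D1 against siCtrl, and p-values were adjusted by Benjamini-Hochberg over all 15084 genes. CPM are TMM-scaled, and means have SD with n = 3. Each SE is that of a log2 fold change fitted on all 6 libraries and was derived from the F statistic.

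Positions, exons and transcripts came from GENCODE M21 and promoters from RefSeq. Genes were named by rule: for each type and cluster the member highest in CPM, the 4 largest called rises and falls (mean log2 CPM 1 or more), the largest and smallest change of each type, all H1 genes, and up to 3 called genes of each companion list. Members, lists and rules were chosen with earlier results of these data known. Genes outside these rules (such as other called members, genes of a pair and neighbours) were named after their values were seen. Alternatives were other scalings and filters, DESeq2 1.42.0, limma 3.58.1 (voom), loess corrections for length and GC content, a replicate block, each library left out, and, added after seeing the data, near-identical copies summed. Simulated data had the depths of this comparison and 14948 genes, 14751 of them unchanged. On these the test recovered 26.5% of genes changed 1.25-fold, 86% at 1.5-fold and 93.8% at 2-fold. In the deposited data 41.2% of all tested genes were called, so these rates do not carry over to the members. The reported fit did not use the numbers to pair the libraries.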

Additional observations from a re-analysis of the deposited data

How the results depend on the processing

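All 15 falls and 4 rises kept their call with DESeq2 size factors, library totals, upper-quartile scaling, no filter, a stricter filter, DESeq2, limma-voom, the GC correction and no rounding. The number of members that fell, 15 in the report, was 23 with DESeq2 (34.8% of members, against 16.9% of all genes lower), 28 with a replicate block (42.4% against 20.6%), 33 with the block and GC correction (50% against 22.2%), 24 with the block and length correction (36.4% against 23.7%), 5 at an adjusted p under 0.01 (7.58% against 12.4%), and from 6 to 43 with a library left out. The share of members that fell was thus near that of all genes in the reported fit and above it with DESeq2 or the block. The labels name no source shared by same-numbered libraries. Their deviations from the group means correlated at -0.22, 0.14 and 0.17, and not every library correlated best with its own number. Such deviations sum to 0 over the 3 libraries of a group, so these correlations cannot show whether a source is shared. The cause of the shifts in the number of falls was not tested.

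For H2A, falls were 2 with DESeq2 size factors, upper quartile, both filters, DESeq2, voom or GC correction, 3 with length correction, 4 with the block (also with length correction), 6 with block and GC correction, 0 at 0.01, and 0 to 11 with a library left out. For H2B they were 10 with DESeq2, 11 with the block (also with GC correction), 9 with block and length correction, 2 at 0.01, and 2 to 11 with a library left out. H3 gave 5, 6, 8, 5 and 0 (DESeq2, block, block with GC, block with length, 0.01) and 1 to 10, and its median ranged from -0.33 to -0.084. H4 gave 1 at 0.01 and 1 to 7, with a median from -0.23 to 0.0033. The first Hist1 group gave 7 (upper quartile and GC), 10 (DESeq2, and block with length), 11 (block), 12 (block with GC), 1 (0.01) and 1 to 15, and the second 17 (block with GC), 3 (0.01) and 4 to 22. Hist2 gave 1 with length correction or the block and 2 with block and GC correction, and 0 to 4, with a median of 0.014 with length correction (with or without block) and from -0.15 to 0.0013 with a library left out. Hist3 gave 2 under all of these except library totals, no rounding and the 0.01 threshold, and 1 to 2. Rises were 2 for H2B and Hist2 with length correction, 0 for H3 and Hist2 at 0.01, 0 to 1 for both with a library left out, and 1 to 2 in the first Hist1 group.

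Genes near 0, none called, changed sign. Hist2h4 was at -0.0093 with DESeq2 size factors, -0.027 with upper quartile, -0.0036 with no filter, -0.012 with DESeq2, -0.012 with GC correction and -0.0058 with block and GC correction, and -0.12 to 0.089 with a library left out. Hist4h4 was at -0.014 (upper quartile), -3.2e-05 (DESeq2), -0.0064 (GC), -0.016 (block with GC) and -0.095 to 0.11. Hist1h1b was at 0.035 with length correction, 0.035 with the block too, and -0.11 to 0.0049. Hist1h2ag was at 0.018 (library totals), 0.047 (length, with or without block) and -0.13 to 0.078. Hist1h2bn was at -0.0011 (DESeq2 size factors), -0.019 (upper quartile), -0.0039 (DESeq2), -0.017 (GC), -0.012 (block with GC) and -0.073 to 0.077. Hist1h4b was at 0.022 (library totals), 0.0015 (stricter filter), 0.042 (length), 0.043 (block with length) and -0.11 to 0.062. Hist2h2aa1 ranged from -0.22 to 0.025 and Hist2h2bb from -0.016 to 0.12. Slbp was at 0.0049 with library totals and 0.0047 with length correction (with or without block), and Npat at 0.0031 with library totals. Depth limited Hist2h2aa2 most, with rounded counts from 0 to 59 and a standard error of 0.81.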
